A study of Mus musculus with 3 samples.

Results

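Within the dendritic cells that carried no RFP, the 2184 BFP+RFP- cells were compared with the 1012 BFP-RFP- cells, 3196 of the 5019 kept cells of the series. A cell belonged to a population when 1 hashtag, an antibody that labels every cell of a sorted population with a known barcode, held at least 80% of its hashtag UMIs. UMIs are unique molecular identifiers, which count captured molecules. Cells with fewer than 500 genes or 1000 mRNA UMIs, or with over 10% of their UMIs from mitochondrial genes, were left out. BFP reports Tnfsf4, the gene of OX40L, so the comparison asks what else differs between cells with and without the OX40L reporter when neither has switched on the RFP mark.

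All mice carried SiglechiCreTg/0, ROSA26LoxP-STOP-LoxP-RFP and Tnfsf4KI/+, so both populations have the same genotype, with 1 knock-in and 1 other Tnfsf4 allele. MC903, a vitamin D analogue that inflames skin, was given on days 0, 2 and 4, and cells of the ear-draining lymph nodes were sorted on day 5. The gate took B220- MHCIIhi cells with low to intermediate CD11c that were XCR1- and CD326-, so that type 1 dendritic cells and Langerhans cells were gated out. The labels state 10400 pooled BFP+RFP- cells and 5200 pooled BFP-RFP- cells, in 1 capture together with the RFP+ cells. RFP stays on in any cell whose ancestors had Siglech-driven Cre activity. RFP- cells are therefore those in which the stop cassette was not removed, whatever the reason. Each population is 1 sample, no untreated mice were analysed here, and no test between the populations was possible. All intervals are 95% intervals for counting error, and the spread between mice is not part of them.

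OX40L is a member of the tumour necrosis factor family on the surface of antigen-presenting cells, and its receptor OX40 sits on activated T cells. In allergic skin inflammation, dendritic cells with OX40L are known to favour type 2 helper T cell responses. Dendritic cells that leave the skin mature on the way, put peptide-loaded MHC class II molecules on their surface and follow CCR7 to the draining lymph node. Peptide loading takes place in endosomes, where the invariant chain Cd74 is removed, H2-DM exchanges peptides and H2-DO restrains H2-DM.

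The 2 hashtags that define the populations and the 4 antibody tags are short DNA barcodes, shown because every cell assignment and surface value rests on them.
Hashtag 3, BFP+RFP-: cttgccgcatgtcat
Hashtag 4, BFP-RFP-: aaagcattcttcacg
CD11b: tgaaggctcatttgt
CD8a: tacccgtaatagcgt
CD172a: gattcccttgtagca
CD301b: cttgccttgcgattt

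The summed mRNA came to 35589710 UMIs in BFP+RFP- and 14874356 UMIs in BFP-RFP- cells. The median cell had 14854.5 UMIs and 3206 genes in BFP+RFP- cells. It had 13897 UMIs and 3139.5 genes in BFP-RFP- cells, so that depth per cell was close. Damaged barcodes were not equally common. Of the barcodes with the BFP+RFP- hashtag, 2.79% exceeded the mitochondrial limit, against 12.8% of those with the BFP-RFP- hashtag. Lowering the limit to 5% left 119 genes at least 1.5-fold higher and 244 lower, close to the 120 and 246 found at 10%.

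The sorted reporter was visible in the mRNA. Tnfsf4 had 102 CPM (UMIs per 1000000 mRNA UMIs, 98.6 to 105) in BFP+RFP- cells and 19.8 CPM (17.6 to 22.2) in BFP-RFP- cells. That is a log2 ratio of 2.36 (2.19 to 2.54), described and not counted as a finding because the sort selected on its reporter. At least 1 Tnfsf4 UMI was seen in 27.2% of BFP+RFP- cells and 9.09% of BFP-RFP- cells. After each cell was thinned to 5000 UMIs, with 152 and 84 shallower cells left out, these shares were 16.5% and 4.74%. Among 48 B cell-like cells of BFP+RFP-, a type that should lack the message in most cells, the share was 4.17% at a median of 4761.5 UMIs, and among 105 T and NK cell-like cells of BFP+RFP- it was 12.4% at 8742 UMIs. The BFP message followed with 16.8 CPM against 2.35 CPM, a log2 ratio of 2.82 (2.34 to 3.37). The RFP message had 6 UMIs in all BFP+RFP- cells and 10 UMIs in all BFP-RFP- cells.

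Both populations were mostly dendritic cells. Leiden clustering on genes that lay within 2-fold between the populations gave 9 clusters, of which 6 were dendritic cell-like. In each of those 6, between 10 and 15 of the 20 dendritic and migratory marker genes were at least 2-fold above the other cell classes, and Ccr7, the receptor that guides cells to the lymph node, ranged from 959 CPM to 2598 CPM. They held 92.4% (91.2 to 93.4) of BFP+RFP- and 93.0% (91.2 to 94.5) of BFP-RFP- cells. The rest were T and NK cell-like (4.81% and 3.56%), B cell-like (2.20% and 0.89%) and macrophage-like (0.64% and 2.57%), although the gate excluded B220+ cells.

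Cluster 4 took a larger share of BFP+ cells than of BFP- cells. Its leading genes included Thy1, a glycoprotein also found on T cells, Nrgn, Il1r1, Dkk2 and Cd8a, and it had the highest CD8a tag median of the 9 clusters, at 149 UMIs. It held 17.3% (15.7 to 19.0) of BFP+RFP- cells and 8.60% (6.94 to 10.5) of BFP-RFP- cells, a log2 ratio of shares of 1.01 (0.67 to 1.36). Tnfsf4 was highest there, at 251 CPM in BFP+ and 76.1 CPM in BFP- cells. Some leading genes of the cluster differ between the populations, and the share ratio was 1.09 when genes past 1.5-fold were also left out of the clustering. The cluster used there was the 1 with most of its cells from cluster 4, so a similar ratio is partly built in. In the other direction, cluster 6 (led by Cd81, the chemokine gene Ccl17 and Tnf) held 5.59% (4.66 to 6.63) of BFP+ and 8.79% (7.12 to 10.7) of BFP- cells. Cluster 3, led by Shisa9 and Frmd5, held 16.8% (15.2 to 18.4) and 21.4% (19.0 to 24.1). Shares of clusters 0, 2 and 7 had overlapping intervals in the populations.

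**Figure D1:**
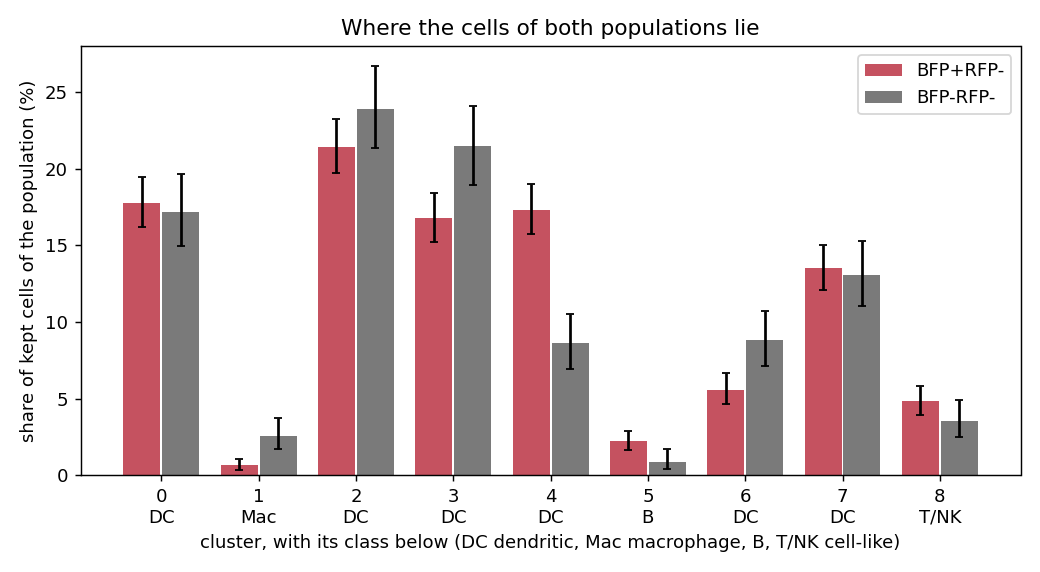
Bars give the share of kept cells of each population (%) in each of 9 clusters, with exact binomial 95% intervals for counting error. Cluster 4 holds 17.3% of BFP+RFP- and 8.60% of BFP-RFP- cells, and macrophage-like cluster 1 holds 0.64% and 2.57%.

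Few genes differed by much. Of 9097 genes with at least 200 UMIs over both populations, 120 (1.32%) were at least 1.5-fold higher in BFP+RFP- cells and 246 (2.7%) at least 1.5-fold lower. The median log2 ratio over all genes was -0.06. TMM scaling, which adds 0.08 to every ratio, gave 166 higher and 185 lower, so the excess of lower genes depends on the scaling. Within the 6 dendritic cell-like clusters, 74 of 8708 genes (0.85%) were higher and 165 (1.89%) lower. When every cluster was given the same weight in both populations, called the same mix here, 57 (0.655%) were higher and 152 (1.75%) lower. Of the 120 higher genes, 64 (53.3%) were also past 1.5-fold in the dendritic cell-like clusters, and of the 246 lower genes 125 (50.8%) were. A few cells carried many of the large ratios: in 31 of the 120 and 62 of the 246, 5 cells held over 20% of the UMIs.

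**Figure D2:**
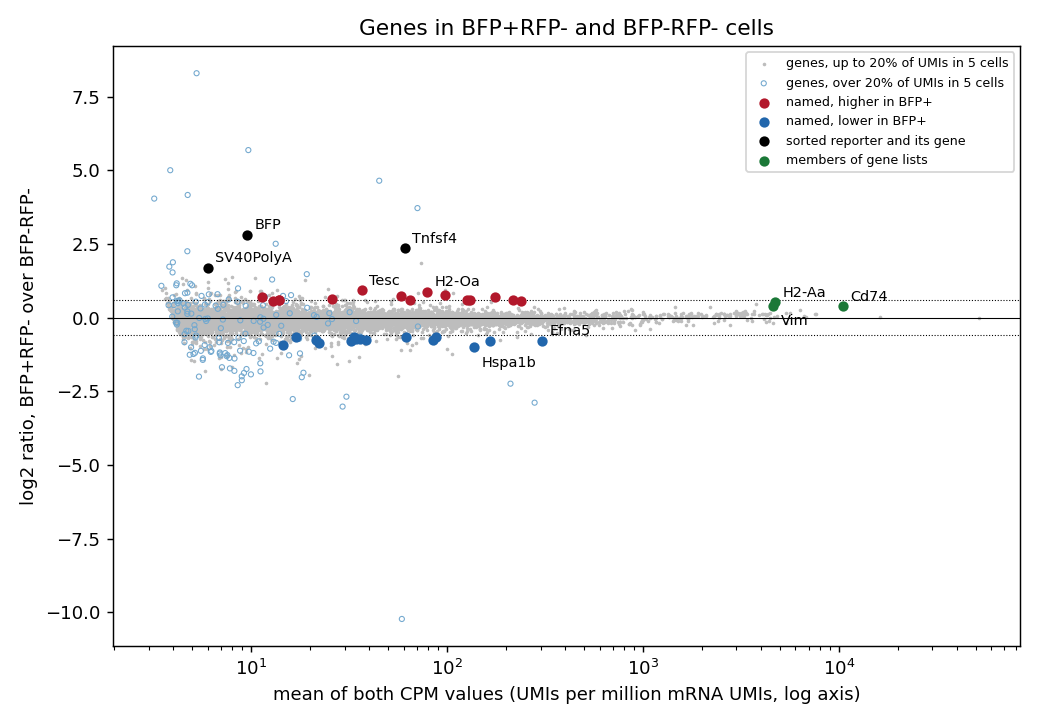
Each point is 1 of 9097 genes, by its mean CPM in the populations (log axis) and its log2 ratio of BFP+RFP- over BFP-RFP- cells; dotted lines mark 1.5-fold and colours the groups in the key. Rings are genes with over 20% of their UMIs in 5 cells, 31 of the 120 genes past 1.5-fold higher and 62 of the 246 lower, while H2-Oa (0.89) and Hspa1b (-1.0) are spread over many cells.

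Genes carried by many cells were therefore named by a rule: at least 500 UMIs, at most 5% of them in 5 cells, and the largest ratio that held both in all cells and in the dendritic cell-like clusters. Of 6211 genes that met the first conditions, 13 were at least 1.5-fold higher in BFP+ cells over all cells and 31 at least 1.5-fold lower. The 15 genes named on the higher side ran from log2 0.56 to 0.94, and the 15 on the lower side from -1.0 to -0.64. In the same mix, 5 of the 15 higher and 10 of the 15 lower genes were past 1.5-fold. The matching comparison within RFP+ cells, BFP+RFP+ against BFP-RFP+, uses other cells of the same capture. There all 15 higher genes were above 0 (0.11 to 1.02) and all 15 lower genes below 0 (-1.72 to -0.48). The share of all genes that kept their sign there is not given here. These cells were also sorted on BFP, so the count is a description and not a replication.

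**Figure D3:**
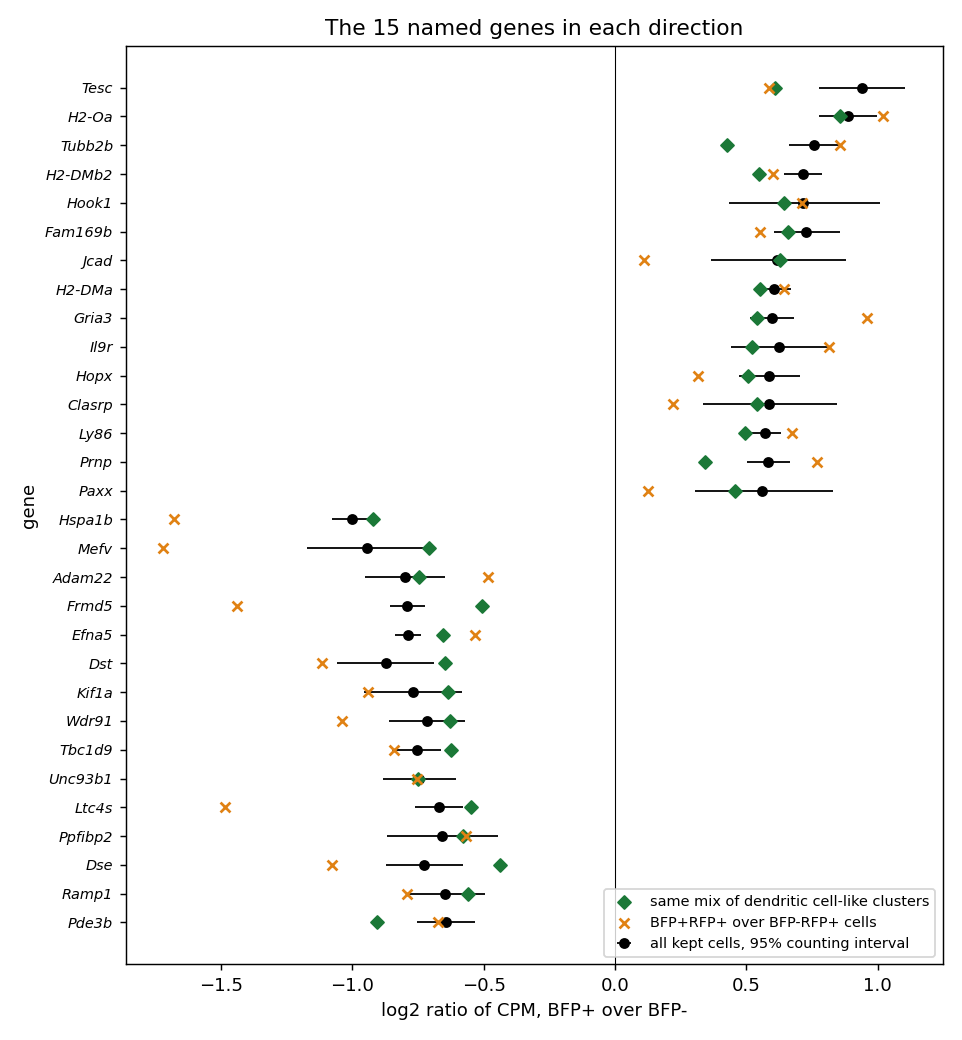
Log2 ratios of CPM, BFP+ over BFP-, for the 30 named genes: black circles for all kept RFP- cells with 95% counting intervals, green diamonds for the same mix of dendritic cell-like clusters, orange crosses for RFP+ cells. All 3 values lie on the same side of 0 for every named gene, with Jcad (0.11) and Paxx (0.12) nearest to 0 in RFP+ cells.

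Of the 15 named higher genes, 3 belong to MHC class II presentation. H2-Oa, a chain of the H2-DO heterodimer, had 103 CPM in BFP+ and 55.7 CPM in BFP- cells (log2 0.89, 0.78 to 1.00), with at least 1 UMI in 53.1% and 35.2% of cells. H2-DMb2, a chain of the peptide exchanger H2-DM, had 218 CPM and 132 CPM (log2 0.72, 0.65 to 0.79). H2-DMa, its partner chain, had 263 CPM and 173 CPM (log2 0.60, 0.54 to 0.67). In the same mix H2-DMa and H2-DMb2 were each at log2 0.55, just under 1.5-fold, and H2-Oa stood at 0.86. The other chains of these complexes differed less over all cells: H2-DMb1, the second beta chain gene of H2-DM, and H2-Ob, the partner of H2-Oa in H2-DO, were each at 0.07. In dendritic cell-like clusters H2-DMb1 was at 0.41 and H2-Ob at -0.28. The classical chains differed less but at far higher counts. H2-Aa, the alpha chain of I-A, had 5589 CPM in BFP+ and 3897 CPM in BFP- cells (log2 0.52, 0.51 to 0.53). The I-E beta chain H2-Eb1 was at log2 0.46, the I-A beta chain H2-Ab1 at 0.37 and the invariant chain Cd74 at 0.38. Ciita, the master coactivator of class II transcription, had 108 CPM and 75.8 CPM (log2 0.51).

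Of the 15 class II presentation genes, all 15 were compared, 3 were at least 1.5-fold higher, against 1.32% of all genes, and 1 at least 1.5-fold lower, against 2.7%. In the same mix, 14 could be compared, of which H2-Oa alone was past 1.5-fold higher and H2-Ob alone, at -0.71, past 1.5-fold lower. The list's median log2 ratio was 0.37 over all cells and 0.50 over the 14 compared within the dendritic cell-like clusters, beside -0.06 and -0.07 over all genes. Over all cells 11 were above 0 and 4 below, the latter genes of processing and turnover. The protease gene Ctss, which trims the invariant chain, was at -0.19, the endosomal reductase gene Ifi30 also at -0.19, and the protease gene Lgmn at -0.26. Marchf1, a ubiquitin ligase that removes class II from the surface, was at -0.69, with 24.9% of its UMIs in 5 cells and only 23.6% in dendritic cell-like clusters. Class I genes showed no such pattern: of 19 compared, 0 were past 1.5-fold in either direction and the median was -0.07. Among them Nlrc5, the class I coactivator, was lowest at -0.50, and B2m, the shared light chain, was at -0.01. B cells also make class II, and the B cell-like cells were 2.20% of BFP+ against 0.89% of BFP- cells. Their part in the class II values over all cells was not tested; the dendritic cell-like clusters leave them out.

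The class II difference was not spread evenly over the dendritic cell-like clusters. Over the 15 genes of the list, 10 or 11 were above 0 in each of clusters 2, 3, 6 and 7 (median log2 0.63 to 1.00), 9 in cluster 4 (median 0.07) and 8 in cluster 0 (median 0.04). H2-Ob was among the genes below 0, at -0.86 in cluster 0, -1.04 in cluster 4 and, over 3 UMIs and 2 UMIs, -0.68 in cluster 7, and H2-Eb2 was at -0.05 in cluster 3. Across 8 of the 15, chosen after their values were seen (H2-Aa, H2-Ab1, H2-Eb1, Cd74, Ciita, H2-DMa, H2-DMb2 and H2-Oa), all 8 were higher in BFP+ cells in each of clusters 2, 3, 6 and 7, by log2 0.42 to 1.46. In cluster 4 they lay between -0.16 and 0.50, and in cluster 0 between -0.59 and 0.12. Cluster 0, led by Ifitm1 and Plek2, has the highest CD11b tag median of the dendritic cell-like clusters. H2-Oa in cluster 0 was lower in BFP+ cells, at 33.9 CPM against 50.8 CPM (log2 -0.59, -0.88 to -0.28). H2-Oa in cluster 3 was at 126 CPM against 47.4 CPM (log2 1.41, 1.14 to 1.70), and those intervals do not overlap. In cluster 4, BFP- cells had 6726 CPM of H2-Aa and BFP+ cells 7644 CPM. In cluster 3, BFP- cells had 2696 CPM and BFP+ cells 5395 CPM.

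**Figure D4:**
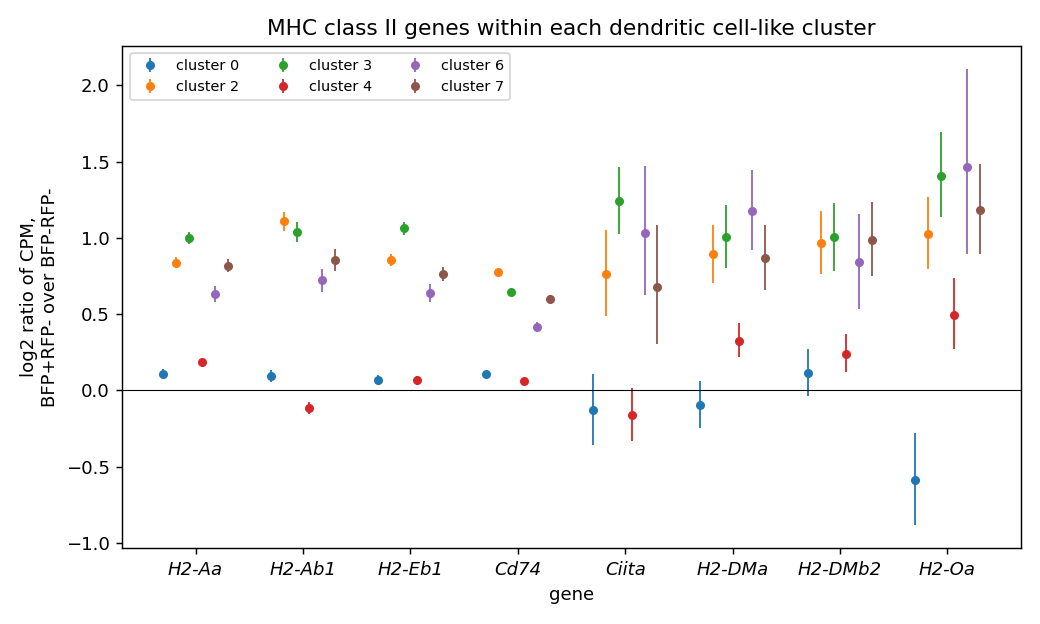
Log2 ratios of CPM (BFP+RFP- over BFP-RFP-) with 95% counting intervals for 8 class II genes in each of 6 dendritic cell-like clusters. Clusters 2, 3, 6 and 7 lie between 0.42 and 1.46, while clusters 0 and 4 lie between -0.59 and 0.50.

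Promoters of the class II genes are described here by the Y box, the CCAAT-type element of class II promoters. The letters searched were GATTGG on either strand, in the 250 bases before each start in RefSeq promoters of build GRCm38.p6. Of 32851 such promoters, 14.6% held it. Of the 15 class II genes, 12 had a promoter entry and 8 held the motif, among them every H2 gene with an entry (for H2-DMa, 1 of its 2 promoters). These are counts of genes and the 14.6% is a share of promoters, so they are not compared. Promoters of Ctss, Lgmn, Ifi30 and Marchf1 did not hold these letters. The 110 bases before the start are printed for H2-Oa, H2-DMb2 and H2-Aa, 5′ to 3′ along the gene, with the motif in capitals.
H2-Oa, chr17:34092269-34092378, plus strand: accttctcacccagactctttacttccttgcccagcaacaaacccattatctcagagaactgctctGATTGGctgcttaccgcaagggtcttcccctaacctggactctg
H2-DMb2, chr17:34145139-34145248, plus strand: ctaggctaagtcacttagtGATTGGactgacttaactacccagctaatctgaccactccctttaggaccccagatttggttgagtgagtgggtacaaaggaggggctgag
H2-Aa, chr17:34287824-34287933, minus strand: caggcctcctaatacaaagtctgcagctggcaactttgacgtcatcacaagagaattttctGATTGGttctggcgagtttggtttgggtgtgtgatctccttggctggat
The motif begins 44, 91 and 49 bases before the start of H2-Oa, H2-DMb2 and H2-Aa. A match is a description of the sequence and not evidence of a bound factor. The Y box is a known element of class II promoters, so matches were foreseeable and do not bear on the ratios. H2-DMb1 and H2-Ob, each at 0.07 over all cells, also held the motif.

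The other named higher genes were of varied function. Tesc, a calcium-binding protein gene, had the largest ratio by the rule, with 48.4 CPM against 25.2 CPM (log2 0.94, 0.78 to 1.11). Tubb2b, a beta-tubulin gene, had 123 CPM and 72.9 CPM (log2 0.76), and fell short of 1.5-fold in the same mix at 0.43. Ly86, the partner of the Toll-like receptor homologue RP105, had 284 CPM and 191 CPM (log2 0.57). Il9r, the receptor chain for interleukin 9, had 31.2 CPM and 20.2 CPM (log2 0.62). Tesc, H2-DMb2, Gria3, Clasrp, Ly86, Prnp and Paxx were higher in BFP+ cells in all 6 dendritic cell-like clusters. The other 8 turned below 0 in 1 cluster each. Over the 27 cytoskeleton genes compared, 3 were past 1.5-fold higher (Myl7, Tubb2b and the cargo adaptor Hook1) and 2 lower (Dst and the kinesin gene Kif1a), with a median of 0.02. Shares over all genes were 1.32% higher and 2.7% lower. Vim, the intermediate filament of mesenchymal and migrating cells, had 5272 CPM and 3967 CPM (log2 0.41), under 1.5-fold.

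Nrgn and Gria3 were also higher in BFP+ cells. Nrgn, a postsynaptic calmodulin-binding protein gene, was at log2 1.31 over 376 UMIs and 63 UMIs, and at 0.55 in the same mix, just under 1.5-fold. Gria3, an AMPA receptor subunit gene, had 151 CPM against 100.2 CPM (log2 0.60, 0.51 to 0.68) and stayed above 0 in all 6 dendritic cell-like clusters, from 0.02 to 2.25.

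Guidance and growth factor genes went both ways. Plxna4, a semaphorin receptor gene, had 91.9 CPM and 50.9 CPM (log2 0.85, 0.74 to 0.97), and stood at 0.79 in the same mix and 1.48 in RFP+ cells. Of 12 semaphorin, plexin and neuropilin genes compared, 2 were past 1.5-fold higher (Plxna4 and Sema6a) and 1 lower (Plxna1, at -0.97). Dkk2, a secreted Wnt inhibitor, had 129 CPM and 67.0 CPM (log2 0.94). It was 0.59 in the same mix, and cluster 4, where its level was highest, holds a larger share of BFP+ than of BFP- cells. Dkk2 was above 0 in clusters 0, 2 and 4 (0.66 to 1.49). It was below 0 in clusters 3 (-0.60, -0.87 to -0.32), 6 (-0.08) and 7 (-0.36). Of 16 Wnt, BMP and growth factor modulators compared, 4 were past 1.5-fold higher and 2 lower, with a median of -0.01. For this list and the semaphorin list the shares over all genes were 1.32% higher and 2.7% lower. Within dendritic cell-like clusters, 3 of 14 modulators were past 1.5-fold higher and 0 lower, against 0.85% and 1.89% of all genes. Areg had the largest ratio of the modulators at 2.25, but 42.2% of its UMIs lay in 5 cells.

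The costimulators other than OX40L hardly differed. Of 16 genes compared from a list of B7, SLAM family and related costimulators, 1 was at least 1.5-fold higher (Nectin2, a nectin gene, 0.61). Also, 1 was lower (Vsir, -0.70), and the median was 0.01. Over all genes, 1.32% were past 1.5-fold higher and 2.7% lower. Within dendritic cell-like clusters, 0 of 14 were past 1.5-fold higher and 1 lower, and in the same mix 0 in either direction. Cd80 and Cd86, the ligands of CD28, were at 0.09 and 0.04, and Cd274, which encodes PD-L1, at -0.09. Among tumour necrosis factor family ligands, 8 of 17 were compared, and besides Tnfsf4 the members past 1.5-fold were Tnfsf8, Lta and Tnfsf12. Tnfsf8 (1.16) had 50.4% of its UMIs in 5 cells and 9.02% in dendritic cell-like clusters. Lta (0.79) was at 5.28 CPM and 3.03 CPM, and Tnfsf12, the gene of TWEAK, was lower at -0.78. Cd70, the ligand of CD27, was at 0.45.

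Cytokines and their receptors showed single differences within lists centred near 0. Beside the counts below, 1.32% of all genes were past 1.5-fold higher and 2.7% lower. Within dendritic cell-like clusters these shares were 0.85% and 1.89%. Il1r1, the signalling interleukin 1 receptor, had 10.6 CPM against 4.64 CPM (log2 1.18, 0.81 to 1.58), and 269 of its 376 BFP+ UMIs lay in cluster 4. Over 30 cytokine and growth factor receptors, 2 were past 1.5-fold higher (Il1r1 and Il9r) and 2 lower (Csf1r and Il1r2), with a median of -0.10. Within dendritic cell-like clusters 27 had enough UMIs to be compared, of which 2 were past 1.5-fold higher and 0 lower. Csf1r is also a macrophage marker, and the part of macrophage-like cells (0.64% of BFP+, 2.57% of BFP-) was not tested. Il7r and Crlf2, which together bind TSLP, the epidermal cytokine raised by MC903, were at 0.08 and 0.17. Of 10 cytokine genes, 1 was past 1.5-fold higher (Tgfb2, 0.79) and 3 lower (Il12b, Il1b and Il18). Within dendritic cell-like clusters, 1 of the 10 was past 1.5-fold higher and 1 lower. Il12b, the p40 chain of interleukins 12 and 23, had 41.2 CPM and 87.7 CPM (log2 -1.09), with 18.9% of its UMIs in 5 cells, and was at 0.61 in RFP+ cells. Ebi3, a chain of interleukins 27 and 35, had 89.4 CPM and 62.0 CPM (log2 0.53). The 19 JAK-STAT genes and the 20 NF-kB genes had 0 members past 1.5-fold, with medians of -0.02 and -0.11. Chemokines had 0 of 14 higher and 3 lower, each of the 3 (Ccl4, Ccl24 and Cxcl9) with over 20% of UMIs in 5 cells.

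Hspa1b, an inducible heat shock chaperone (HSP70), had the largest ratio of the 15 named lower genes. It had 91.4 CPM in BFP+ and 183 CPM in BFP- cells (log2 -1.0, -1.08 to -0.93). It was lower in all 6 dendritic cell-like clusters, from -1.43 to -0.63, and was detected in 37.1% and 48.5% of cells. Its near-identical neighbour Hspa1a had 64.9 CPM and 135 CPM (log2 -1.06), so that reads may be split between the pair. Of 15 chaperone genes compared, only these 2 were past 1.5-fold, against 2.7% of all genes past 1.5-fold lower, and the median was -0.20. The barcodes removed for mitochondrial UMIs were more frequent in BFP-RFP-, and with the limit at 5% Hspa1b was at -1.03. With 1 sample per population, viability at the sort and reporter state cannot be told apart.

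The other named lower genes were of varied function. Efna5, an ephrin ligand gene, had 224 CPM against 387 CPM (log2 -0.79, -0.84 to -0.74). At least 1 Efna5 UMI was seen in 51.9% of BFP+ and 49.1% of BFP- cells, so its lower sum did not go with a smaller share of cells. With each cell given the same weight the Efna5 log2 ratio was -0.62, and in cluster 0 it was -0.02. Frmd5, which encodes a junctional scaffold protein, had 121 CPM and 209 CPM (log2 -0.79), and -0.50 in the same mix. Tbc1d9, a Rab GTPase-activating protein gene, had 62.9 CPM and 106 CPM (log2 -0.75) and was lower in all 6 clusters, from -0.86 to -0.37. Kif1a, Wdr91, Ppfibp2 and Ramp1, the last a subunit of the receptor for the neuropeptide CGRP, were likewise lower in all 6. Unc93b1, the escort of endosomal Toll-like receptors, had 28.8 CPM and 48.3 CPM (log2 -0.75). Mefv, the gene of pyrin, was at -0.94. Of the 15 named lower genes, 11 were lower in all 6 dendritic cell-like clusters. Frmd5 was above 0 in cluster 4 (0.31), Mefv in cluster 0 (0.18) and Unc93b1 in cluster 3 (0.05). Dst was above 0 in clusters 0 (0.19) and 7 (0.10).

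Lipid mediator, lysosomal and cholesterol genes leaned lower. Ltc4s, leukotriene C4 synthase, had 67.9 CPM and 108 CPM (log2 -0.67, -0.76 to -0.58). Alox5ap, which passes arachidonic acid to 5-lipoxygenase, was at -1.82, with 44.7% of its UMIs in dendritic cell-like clusters, where it was at -1.83. Mgll, monoacylglycerol lipase, went the other way at 0.76. Of 7 lipid mediator enzyme genes compared, 6 were below 0 (median -0.49), with 1 past 1.5-fold higher and 2 lower. Of the 6 compared in the same mix, 1 was past 1.5-fold higher and 0 lower. Of 23 lysosomal protease and hydrolase genes, 22 were below 0 (median -0.32, and -0.26 in dendritic cell-like clusters), but only Cd68 (-0.69) passed 1.5-fold. Most of all genes compared were also below 0, with a median of -0.06 and quartiles of -0.18 and 0.05. Npc2, a cholesterol carrier of the lysosome, had 780 CPM and 1034 CPM (log2 -0.41). The 27 cholesterol and fatty acid genes had a median of -0.27, with 1 past 1.5-fold higher and 3 lower. Over all genes compared, 1.32% were past 1.5-fold higher and 2.7% lower. Macrophages are rich in lysosomal messages, and the macrophage-like share was 0.64% against 2.57%. Medians within dendritic cell-like clusters leave those cells out.

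Genes of type 2 dendritic cells and C-type lectins were lower in BFP+ cells. Of 10 type 2 dendritic cell markers compared, 8 were at least 1.5-fold lower, against 2.7% of all genes, and 0 higher (median -1.06). Of the 15 markers on that list, 10 were at least 2-fold higher in macrophage-like cluster 1 than in the other cells. That cluster held 0.64% of BFP+ and 2.57% of BFP- cells. Within dendritic cell-like clusters 6 markers could be compared, 2 of them past 1.5-fold lower, against 1.89% of all genes (median -0.47). Sirpa, the gene of CD172a, had 79.7 CPM and 121 CPM (log2 -0.61, -0.69 to -0.52), and -0.41 in dendritic cell-like clusters. Clec12a, a lectin receptor for dead cells, had 6.10 CPM and 15.8 CPM (log2 -1.37), with -1.18 in those clusters. Of 11 C-type lectin genes compared, 9 were past 1.5-fold lower, against 2.7% of all genes, and 0 higher (median -1.12). Within dendritic cell-like clusters 3 of the 7 compared were past 1.5-fold lower, against 1.89% of all genes (median -0.52). The lectin and type 2 lists share members, Cd209a among them, so their counts are not separate results. Cd209a, at -1.12, had 81.4% of its UMIs in 5 cells. Macrophage and monocyte markers went with these genes: all 12 compared were past 1.5-fold lower, against 2.7% of all genes. The summed level of the 22 markers was 205 CPM in BFP+ and 730 CPM in BFP- cells. In dendritic cell-like clusters that sum was 105 CPM and 146 CPM, and Vsig4 was at 0 in both populations. The part of macrophage-like cells in the remaining differences was not tested.

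Other cell types were traced in the same way. The 22 T and NK cell markers summed to 732 CPM in BFP+ and 591 CPM in BFP- cells, and the 18 B and plasma cell markers to 283 CPM and 700 CPM. Igkc made up most of the latter sum, at 493 CPM in BFP- cells, with 79.2% of its UMIs in 5 cells. Neutrophil markers were near 0, at 0.93 CPM and 3.56 CPM, with Ly6g, Retnlg and Camp at 0. The part of these cells in the all-cell ratios was not tested beyond the values given for dendritic cell-like clusters.

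At the surface, CD301b and CD172a were lower on BFP+ cells. CD301b, a galactose-binding lectin of type 2 dendritic cells encoded by Mgl2, had a median of 31 tag UMIs per BFP+ cell (quartiles 23 and 52) and 43 per BFP- cell (27 and 108). The distributions overlapped, with the difference widest at the top: the 95th percentile was 228 on BFP+ and 618 on BFP- cells. The log2 ratio of means was -0.94 over all cells, -0.91 in dendritic cell-like clusters and -0.82 in the same mix. B cell-like cells, which should not bind this antibody, had a median of 22. Above the 95th percentile of those cells lay 39.0% (36.9 to 41.2) of dendritic cell-like BFP+ cells and 56.7% (53.5 to 59.9) of BFP- cells. In cluster 6 the medians were 51 on BFP+ and 175 on BFP- cells, and that was the widest gap between cluster medians. Its message gave 5.82% and 5.24% of cells with an Mgl2 UMI, and 1.72% and 2.48% after thinning to 5000 UMIs, few cells in either population. The summed Mgl2 ratio of -0.82 had 21.6% of its UMIs in 5 cells.

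CD172a, a receptor for CD47, had a median of 92 UMIs on BFP+ cells (quartiles 55 and 154) and 129.5 on BFP- cells (66 and 239). The log2 ratio of means was -0.45, and -0.31 in the same mix. Tag and message pointed the same way here, since Sirpa was at -0.61. Nearly all dendritic cell-like cells carried it, 87.5% and 88.5% above the B cell-like background. In RFP+ cells the medians were 64 on BFP+ and 99 on BFP- cells.

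Over all cells of the 2 populations, CD11b and CD8a differed little. The CD11b medians were 46 and 56 UMIs with a log2 ratio of means of -0.17, reduced to -0.05 in dendritic cell-like clusters. Single clusters differed more and in both directions. CD11b medians on BFP+ and BFP- cells were 239 and 174.5 in cluster 0, 46 and 73 in cluster 4, and 31 and 76 in cluster 7. In RFP+ cells the CD11b medians were 25 on BFP+ and 39 on BFP- cells, with a log2 ratio of means of -0.92. Itgam, the gene of CD11b, had only 60 UMIs and 34 UMIs, with an interval from -1.07 to 0.21, so a difference was not detectable at this depth. The CD8a medians were 42 and 40, and its log2 ratio of means of 0.25 fell to 0.02 in the same mix. Per 1000 mRNA UMIs the log2 ratio was -0.0037. Cd8a mRNA was at -0.06 (-0.26 to 0.14). In RFP+ cells the CD8a medians were 121 on BFP+ and 63 on BFP- cells.

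**Figure D5:**
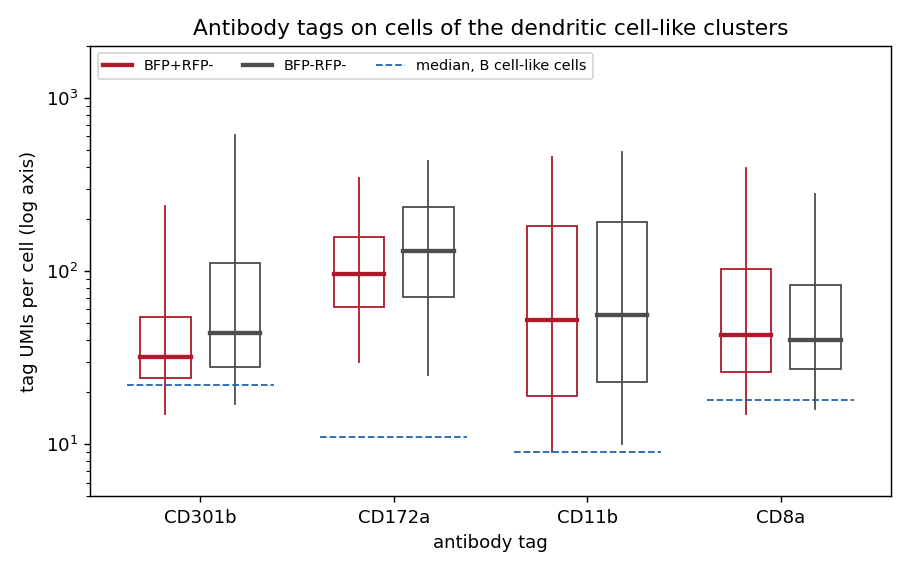
Tag UMIs per cell (log axis) in the dendritic cell-like clusters, BFP+RFP- in red and BFP-RFP- in grey: boxes span the quartiles with the median as a thick line, thin lines run from the 5th to the 95th percentile, and dashed lines give the B cell-like median. The CD301b and CD172a boxes sit lower on BFP+ cells, with medians of 32 against 44 and 96 against 131.

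Cluster 0 also stood apart in its tags. BFP+ cells there had higher medians than BFP- cells for CD301b (34 and 30), CD172a (99 and 73) and CD11b (239 and 174.5), while in each of the other 5 dendritic cell-like clusters all 3 tags had lower medians on BFP+ cells. Sirpa mRNA followed, at log2 0.41 (0.24 to 0.59) in cluster 0 and between -1.17 and -0.46 in the others. By summed UMIs, the BFP message was not higher in the BFP+ cells of cluster 0, with 18 UMIs against 9 UMIs (log2 -0.35, -1.54 to 1.02). At least 1 BFP UMI was seen in 3.87% of BFP+ and 2.30% of BFP- cells there, and 5 cells held 48.1% of these UMIs. Tnfsf4 was at 17.0 CPM against 6.57 CPM there (log2 1.34, 0.66 to 2.15), detected in 7.22% and 5.17% of cells. Of its UMIs, 52.5% lay in 5 cells, so a few cells weigh heavily in both ratios.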

How the data were processed

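CITE-seq reads mRNA and antibody tags of the same cells. Per the labels, mRNA, antibody tag and hashtag libraries came from 1 capture. The authors deposited raw counts (UMIs) in a matrix of 6079 barcodes with 22548 gene features, made, per the file headers, by Cell Ranger 7.0.0, with GRCm39 (mm39) per the submitters' processing notes. How barcodes were called as cells is not stated: it was not given in the sources used here. The antibodies carry TotalSeq-A, -B and -C tags, and their capture may differ, so tags are not compared with each other.

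Of the barcodes, 699 had no hashtag with 80% of hashtag UMIs and were left out, which removes doublets of different populations. Doublets within a population were not called; an alternative leaves out the 10% of cells with most UMIs. Of barcodes with the hashtags compared, 76 (BFP+RFP-) and 160 (BFP-RFP-) failed the filters.

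UMIs were summed per population and scaled to CPM. Log2 ratios used a pseudocount of 0.5 UMI. Ratio intervals are exact conditional binomial, level intervals exact Poisson and share intervals exact Clopper-Pearson, at 95%. Clustering used scanpy 1.11.5 (2000 variable genes, 30 components, 15 neighbours, Leiden resolution 0.5), leaving out genes past 2-fold and the reporters. Python 3.11.15, scipy 1.17.1 and, for TMM, edgeR 4.0.16 were used. The code was tested on simulated data.

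Named were, per direction, the 15 genes with the largest smaller ratio of all cells and dendritic cell-like clusters (at least 500 UMIs, at most 5% in 5 cells; no gene models without a symbol, mitochondrial, ribosomal or antigen receptor genes), the reporters, the tag genes and the extreme members of the lists described. Other genes were chosen after their values were seen. Members and lists were chosen with earlier results of these data known. Alternatives varied the hashtag share, mitochondrial limit, cells, weighting, scaling, UMI minimum, pseudocount, fold, tag measure and clustering. Promoter sequences are RefSeq's on build GRCm38.p6, not the build of the files, and were matched by symbol. 1 gene's results are not reported here.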

Additional observations from a re-analysis of the deposited data

How the results depend on the processing

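With 1 sample per population the intervals cover counting error only and no replicate could be left out. No paired analysis was possible because 1 capture gave 1 sample of either population. The 120 higher and 246 lower genes became 74 higher in dendritic cell-like clusters, 57 and 152 in the same mix, 273 and 602 with at least 50 UMIs, 30 and 65 with at least 1000 UMIs, 336 and 897 at the lower fold limit tried, and 34 and 82 at 2-fold. Tnfsf4 moved from 2.36 to 2.03 in the same mix. Under 90% of hashtag UMIs the CD172a log2 ratio was -0.43; under 70% CD301b was -0.98, CD172a -0.48 and CD8a 0.21. At 5% mitochondrial UMIs CD301b was -0.88, CD11b -0.16 and CD8a 0.27. Without the cells with most UMIs the ratios were -1.04 (CD301b), -0.55 (CD172a), -0.31 (CD11b) and 0.23 (CD8a). In dendritic cell-like clusters they were -0.91, -0.39, -0.055 and 0.27, and in the same mix -0.82, -0.31, -0.10 and 0.024. By medians they were -0.47, -0.49, -0.28 and 0.070. As centred log ratios (natural log) the differences were -0.22, -0.081, 0.012 and 0.29, and per 1000 mRNA UMIs the log2 ratios were -1.04, -0.62, -0.47 and -0.0037. CD301b and CD172a kept their sign in every setting, CD11b turned above 0 as a centred ratio and CD8a below 0 per mRNA UMI. The share ratio of cluster 4 (1.01) was 1.09 with both other clusterings. There it was taken over the clusters with most of their cells from cluster 4, so a similar ratio is partly built in. These were 1 cluster of 276 BFP+ and 60 BFP- cells when genes past 1.5-fold were left out. At Leiden resolution 1.0 they were 2 clusters of 362 and 79 cells. None of the 30 genes named by size changed sign. Of the tag genes, Itgam (-0.45) was at 0.02 in the same mix, and Cd8a (-0.06) was at 0.50 without the cells with most UMIs, 0.30 with equal cell weights and 0.02 under TMM scaling.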

Other observations

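Further genes were lower in BFP+ cells. Dnase1l3, a secreted DNase, had 22.5 CPM in BFP+ and 89.6 CPM in BFP- cells (log2 -1.99, -2.12 to -1.86), and was lower in all 6 dendritic cell-like clusters, from -2.59 to -0.68. Aif1, a macrophage and dendritic cell actin-binding protein gene, had 63.6 CPM and 149 CPM (log2 -1.23). In cluster 0 it was at -1.48 and in cluster 3 at 0.00, so the difference lay in some clusters only. Wdfy4, which is needed for cross-presentation by type 1 dendritic cells, was at -1.32 over all cells and -2.17 in the same mix. In cluster 4 it had 51.6 CPM in BFP+ and 263 CPM in BFP- cells. Its top 5 cells held 17.9% of its UMIs, so a few cells weigh heavily in it. Adgre1, the gene of F4/80, was at -1.54 over all cells and -1.52 in dendritic cell-like clusters, where macrophage-like cells are left out. It is 1 member of the macrophage and monocyte list. Of that list, 4 could be compared in those clusters, with 1 past 1.5-fold lower and a median of -0.47. Dnase1l3, Aif1, Wdfy4 and Adgre1 were chosen after their values were seen.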
